A study of Mus musculus with 10 samples.

Results

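The 35 genes described here take up glucose, break it down to pyruvate and lactate, divert it into the pentose phosphate pathway, or regulate these steps. They were listed by name: 2 glucose transporters, 3 hexokinases, 9 genes of upper glycolysis, 7 of lower glycolysis, 4 of lactate handling, 3 pyruvate dehydrogenase kinases, 4 pentose phosphate enzymes, and the regulators Hif1a and Myc with the HIF-1 target Bnip3. All 35 were found among the 55809 gene rows of each count table, and all 35 had the mean count of at least 10 that testing required, as did 16363 genes in all.

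RNA-seq was performed on Treg cells from spleen and lymph nodes of mice in which the endogenous Foxp3 gene produces Foxp3 protein carrying a degradation tag, the auxin-inducible degron (AID), next to ZsGreen and Cre recombinase. The labels place 6 libraries, replicates 5 to 10, in the R26-TIR1(F74G) genotype and 4 libraries, replicates 1 to 4, in R26-WT, and both genotypes were given 5-ph-IAA for 14 days. The ROSA26 allele of R26-TIR1(F74G) mice holds the plant ubiquitin ligase subunit TIR1, with an F74G mutation that lets it use 5-ph-IAA, and the mCherry reporter, driven by the CAG promoter and silent until Cre removes a loxP-flanked stop. TIR1 is thus limited to cells in which the Foxp3 locus has been active, and R26-WT mice carry the same Foxp3 allele without TIR1. The labels give neither sex nor age. The comparison asks which transcripts differ between these genotypes after 14 days of 5-ph-IAA. No library was untreated, so Foxp3 protein degradation and the TIR1 allele itself cannot be told apart. In its single-cell data of lymphoid organs the paper removed genes that differed between genotypes before treatment.

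Resting T cells burn pyruvate in mitochondria, whereas activated and dividing T cells raise glucose uptake and excrete lactate. MYC and HIF-1 are the textbook activators of that program, and mTORC1 signalling acts upstream of both. In Treg cells glycolysis is linked to proliferation and migration, and Foxp3 has been described as a restraint on MYC and glycolysis. RNA levels report neither enzyme activity nor glucose flux.

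Libraries held from 24158699 to 54795718 counted read pairs, and all values below are normalized counts (counts divided by DESeq2 size factors) unless another scale is named. Foxp3 mRNA itself averaged 8930 ± 2366 over the R26-WT and 9401 ± 3415 over the R26-TIR1(F74G) libraries (mean ± SD, n = 4 and 6), which is no check of the protein. The 10 T cell and Treg cell identity genes summed to 242746 to 287457 in R26-WT and 229028 to 259189 in R26-TIR1(F74G). DESeq2 called 0 of the 10, as did edgeR, but 8 had negative log2 fold changes, 3 of them (Ctla4, Tnfrsf18 and Izumo1r) at an unadjusted p under 0.05, and their mean log2 normalized count of 14.28 to 14.38 in R26-WT did not overlap that of 14.17 to 14.26 in R26-TIR1(F74G). The part of this difference in the values of the 35 genes was not tested. The 5 neutrophil markers had at most 8 raw counts in a library and the B cell markers Ms4a1, Ebf1 and Pax5 at most 12, while Cd79a and Cd79b together gave 832 to 1362 normalized counts in R26-WT and 704 to 1180 in R26-TIR1(F74G). Libraries of one genotype differed: the first principal component of the 500 most variable genes held 60.5% of their variance, with R26-WT replicates 3 and 4 at 16.8 and 15.5 and R26-TIR1(F74G) replicate 7 at -24.6, and R26-TIR1(F74G) replicate 9 lay farthest out on the second, at -14.9. Nothing in the labels names separate experiments, and whether the libraries came from separate mice is not stated, so p-values measure the spread between these samples.

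None of the 35 genes passed the test. DESeq2 called 0 of 35 members at an adjusted p under 0.05, beside 1.4% of all tested genes called higher and 0.336% called lower in R26-TIR1(F74G). edgeR also called 0 of 35, beside 0.373% of all genes, and limma voom called 0 of 35, beside 0.489% of all genes. At an unadjusted p under 0.05, DESeq2 gave 3 members higher, beside 4.17% of all genes, and 3 lower, beside 2.68%. The higher ones were Pfkm, Eno1 and Pfkp and the lower ones Slc2a3, Bnip3 and Eno3. The normalized counts of the genotypes overlapped for every member, beside 2.37% of all tested genes without overlap. With shares this small over all genes, 0 of 35 does not set the members apart from other genes.

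The log2 fold changes of R26-TIR1(F74G) over R26-WT ran from -0.59 for Slc2a3 to 0.56 for Hk3, with 19 positive and 16 negative. Their median was 0.040, against 0.00063 over all tested genes. Standard errors ran from 0.08 to 0.43, with a median of 0.15. For 28 of 35 members the 95% interval lay within a 1.5-fold change in either direction, and for 33 of 35 within a 2-fold change, the exceptions being Slc2a3 and Hk3. Together the members took 0.537% to 0.637% of a library's counts. Differences inside these intervals are not excluded with 4 and 6 libraries, and the smallest detectable difference was not measured.

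**Figure D1:**
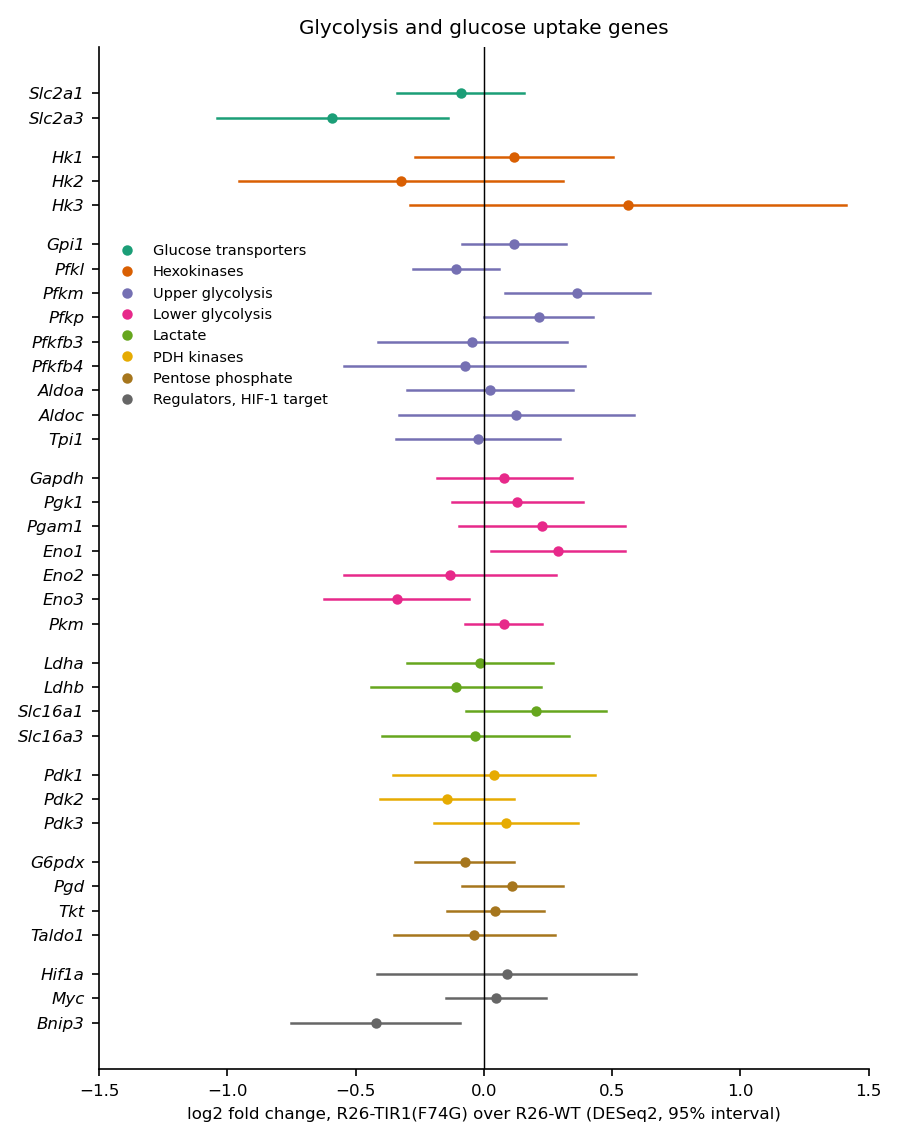
Log2 fold change of R26-TIR1(F74G) over R26-WT (x axis) for the 35 genes (y axis), in order of role, with DESeq2 estimates as points and 95% intervals as lines. The intervals of Slc2a3, Eno3 and Bnip3 lie below 0 and those of Pfkm, Pfkp and Eno1 above it before adjustment, and the widest belongs to Hk3.

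The level of the pathway was read per exon length, as TPM (counts divided by exon length and scaled to a constant sum per library), because counts alone favour long genes. Ldha, which turns pyruvate into lactate, was the most abundant member, with a median of 1190 TPM over the 10 libraries. Myc followed at 536 TPM, then the aldolase Aldoa at 511 TPM, the pyruvate kinase Pkm at 417 TPM and the transaldolase Taldo1 at 352 TPM. At the other end were the inducible hexokinase Hk2 at 0.845 TPM and Hk3 at 0.543 TPM. With CPM per kilobase Ldha, Myc, Aldoa, Pkm, Taldo1, Eno1 and Ldhb also held ranks 1 to 7. That scale uses the same exon lengths and differs only by a factor per library, so it cannot test the order of genes. Exon length covers all annotated exons of a gene and can exceed that of a transcript. It was 4133 bases for Gapdh and 13401 for Pfkp, against 1420 and 4308 in the canonical transcripts. Levels between genes and family shares depend on it.

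**Figure D2:**
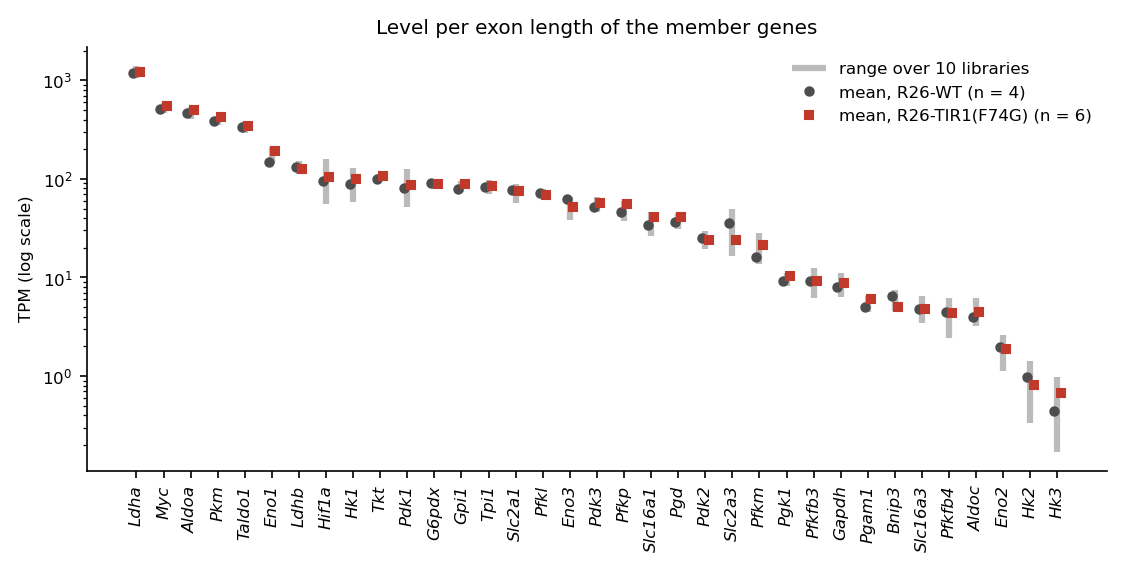
Level of each of the 35 genes in TPM (y axis, log scale), ordered by the median over 10 libraries. Grey bars show the range over the libraries, circles the R26-WT mean (n = 4) and squares the R26-TIR1(F74G) mean (n = 6). Ldha is highest at a median of 1190 and Hk3 lowest at 0.543.

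Several textbook abundant enzymes were low: Gapdh stood at 8.13 TPM, Pgk1 at 9.78 TPM and Pgam1 at 5.88 TPM. These genes have many near-identical copies in the mouse genome, and the authors kept only alignments with a mapping quality of at least 30. In the canonical transcripts (GENCODE M39, GRCm39), 84.1% of the 50-base stretches of Gapdh, 90.2% of those of Pgk1 and 93.0% of those of Pgam1 occur again elsewhere in the genome. The share was 65.8% for Bnip3, 57.2% for Eno1, 38% for Pkm and 31.4% for Ldha. Read pairs that align equally well to several places do not pass such a filter, so the levels of these 7 genes are uncertain. Lower shares were found for Tpi1 (28.1%), Ldhb (26.6%), Gpi1 (18.9%) and Aldoa (12.8%), whose levels and family shares carry the same doubt to a lesser degree. Over all annotated exons the shares were 83.5% for Pgam1, 68.3% for Pgk1, 45.2% for Bnip3 and 24.6% for Gapdh. Eno1 stood at 20.7%, Pkm at 17.4% and Ldha at 15.05% by that count. Ldhb was above these 3 and Gapdh, at 26.75%, so the order depends on the exons counted.

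Glucose enters T cells through Slc2a1 (GLUT1), the transporter induced on activation, and Slc2a3 (GLUT3), which has the higher affinity for glucose. Slc2a1 (chr4:118965908-118995180, GRCm39, plus strand) had 3879, 3531, 4190 and 4518 normalized counts in R26-WT replicates 1 to 4. In R26-TIR1(F74G) the lowest was 3037, the median 3815 and the highest 4355. The groups overlapped, and the log2 fold change was -0.09 (SE 0.13, DESeq2 adjusted p = 0.99996), with a 95% interval from -0.34 to 0.16.

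Slc2a3 (chr6:122704768-122778599, GRCm39, minus strand) had the lowest fold change and the smallest p of the 35. Its normalized counts were 4715, 4852, 2452 and 2881 in R26-WT replicates 1 to 4. In R26-TIR1(F74G) the lowest was 1813, the median 2589 and the highest 3097. R26-WT replicates 1 and 2 stood above every other library, while replicates 3 and 4 lay inside the R26-TIR1(F74G) range. The means of 3725 ± 1236 (SD, n = 4) and 2474 ± 511 (SD, n = 6) gave a log2 fold change of -0.59 (SE 0.23, unadjusted p = 0.0101, DESeq2 adjusted p = 0.284). Leaving out each library in turn kept it between -0.74 and -0.44, with no call.

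The call on Slc2a3 depended on how the libraries were scaled. An alternative scaling fitted each library's trend on exon length and GC content and removed it with offsets. On that scale Slc2a3 had 4444, 4234, 2931 and 3367 in R26-WT replicates 1 to 4, and 2050 to 2709 with a median of 2491 in R26-TIR1(F74G), so the groups no longer overlapped. DESeq2 then gave a log2 fold change of -0.64 (SE 0.14, adjusted p = 7.9e-04) and called it lower, beside 0.538% of all genes, and edgeR gave an adjusted p of 0.0415, beside 0.104% of all genes. Slc2a3 and Eno3 were the 2 of 35 members (5.71%) without overlap on that scale, against 2.6% of all tested genes. The coefficient of variation of Slc2a3 fell from 33.2% to 19.1% in R26-WT and from 20.6% to 11.3% in R26-TIR1(F74G).

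Removing the trend did not tighten every member. The coefficient of variation fell in both genotypes for 18 members, rose in both for 8 and moved in opposite directions for 9. For Tkt, the transketolase, it rose from 8.33% to 23.6% in R26-WT. Slc2a3 was therefore called on one scale and not on the other, and which scale is nearer to the RNA content of the cells was not tested. The early response genes Jun, Junb and Fos, which handling can induce, were lower in R26-TIR1(F74G), at log2 fold changes of -0.71, -0.70 and -0.88 (DESeq2 adjusted p = 0.0011, 0.0028 and 0.0493), the 3 of 10 stress and dissociation genes called, of which edgeR called 1, Jun. The summed level of the 10 stress and dissociation genes was 96535 to 139232 in R26-WT and 69634 to 92792 in R26-TIR1(F74G). Their mean log2 normalized count, in which abundant genes weigh no more than others, overlapped. It was 10.39 to 11.07 in R26-WT and 10.19 to 11.13 in R26-TIR1(F74G). Of the 10 genes 6 had negative and 4 positive log2 fold changes. The part of these genes in the Slc2a3 values was not tested.

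**Figure D3:**
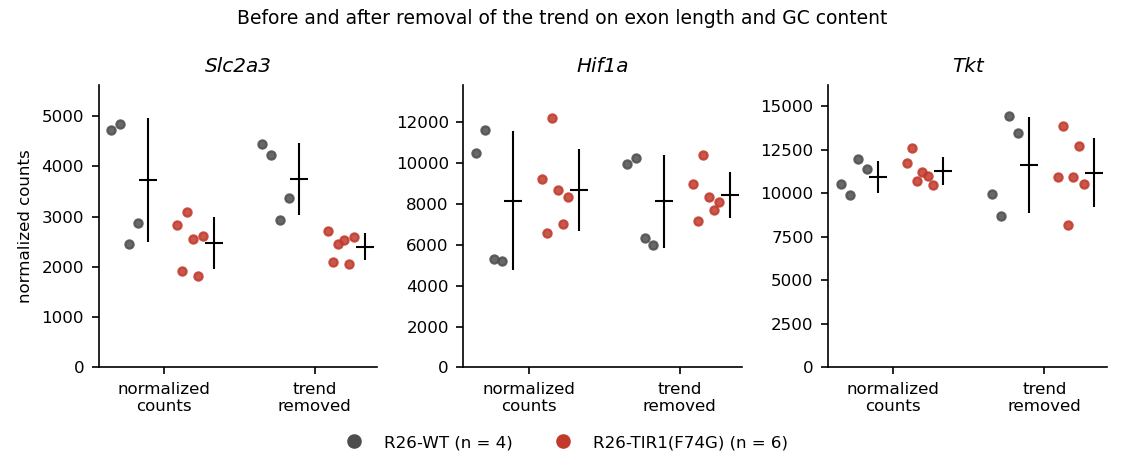
Normalized counts (y axis) of Slc2a3, Hif1a and Tkt before and after removal of the trend on exon length and GC content (x axis), with 1 point per library and bars for mean ± SD. The Slc2a3 groups separate after removal, the R26-WT Hif1a values stay split in pairs, and the Tkt values spread out.

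Hexokinases trap glucose in the cell by phosphorylation. Hk1, the constitutive form, made up 97.5% to 99.1% of hexokinase transcripts per exon length in the 10 libraries. Its log2 fold change was 0.12 (SE 0.20, DESeq2 adjusted p = 0.99996). Hk2, which activated T cells induce, had 114, 95.4, 63.5 and 72.7 normalized counts in R26-WT replicates 1 to 4, and 30.8 to 109 with a median of 69.5 in R26-TIR1(F74G). The groups overlapped, and its log2 fold change of -0.32 (SE 0.32) came with a wide interval, from -0.96 to 0.31. Hk3, a myeloid form, was lowest of all members and had a log2 fold change of 0.56 (SE 0.43).

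Phosphofructokinase is the committed step of glycolysis, and its liver, muscle and platelet forms Pfkl, Pfkm and Pfkp were all present. Pfkm (chr15:97990470-98030332, GRCm39, plus strand) had 897, 792, 747 and 735 normalized counts in R26-WT replicates 1 to 4. In R26-TIR1(F74G) the lowest was 759, the median 1032 and the highest 1221. Every R26-TIR1(F74G) library but replicate 9 lay above the whole R26-WT range. The log2 fold change was 0.36 (SE 0.14, unadjusted p = 0.0117, DESeq2 adjusted p = 0.314).

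Without R26-TIR1(F74G) replicate 9, Pfkm was called higher by DESeq2 at a log2 fold change of 0.44 (adjusted p = 0.0189), beside 1.25% of all genes, so this call rested on 1 library. Of its exon bases, 10.7% overlap other genes, and the counts are unstranded. Pfkp had 10049, 10240, 8065 and 8396 normalized counts in R26-WT replicates 1 to 4, and 9532 to 11517 with a median of 10774 in R26-TIR1(F74G). The groups overlapped through R26-WT replicates 1 and 2, and the log2 fold change was 0.21 (SE 0.11, DESeq2 adjusted p = 0.722). Pfkl was at -0.11 (SE 0.09, adjusted p = 0.99996).

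The other 6 genes of upper glycolysis had log2 fold changes from -0.07 for Pfkfb4 to 0.13 for Aldoc. Pfkfb3 and Pfkfb4 make fructose 2,6-bisphosphate, the activator of phosphofructokinase, and stood at -0.05 and -0.07. Aldoa supplied 98.9% to 99.4% of aldolase transcripts per exon length, with Aldoc as the remainder. Gpi1, the isomerase, was at 0.12, Tpi1, which interconverts the triose phosphates, at -0.02, and Aldoa at 0.02.

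Enolase makes phosphoenolpyruvate, and the ubiquitous form Eno1 and the muscle form Eno3 pointed in opposite directions. Eno1 (chr4:150321178-150333336, GRCm39, plus strand) had 10991, 10772, 13678 and 12787 normalized counts in R26-WT replicates 1 to 4, and 12417 to 17142 with a median of 14639 in R26-TIR1(F74G). R26-WT replicates 3 and 4 overlapped the low R26-TIR1(F74G) libraries, and the log2 fold change was 0.29 (SE 0.13, DESeq2 adjusted p = 0.581).

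Eno3 (chr11:70548028-70553339, GRCm39, plus strand) had 1526, 1436, 1732 and 1779 normalized counts in R26-WT replicates 1 to 4, and 1017 to 1470 with a median of 1312 in R26-TIR1(F74G). Only R26-WT replicate 2 fell within the R26-TIR1(F74G) range, and the log2 fold change was -0.34 (SE 0.14, DESeq2 adjusted p = 0.413). With the trend removed it was -0.32 (adjusted p = 0.284), without overlap and without a call. The neuronal form Eno2 ranged from 1.13 to 2.59 TPM over the 10 libraries.

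Expressed as shares within a family, per exon length, Eno1, Eno3 and Pfkl did not overlap between genotypes, out of 22 paralogs in 9 families, and no such share was computed for gene families outside the list. Eno1 held 69.2% to 71.3% of enolase transcripts in R26-WT and 73.3% to 84.0% in R26-TIR1(F74G). Eno3 held 27.9% to 29.8% and 15.4% to 25.8%. Pfkl held 50.5% to 57.2% of phosphofructokinase transcripts in R26-WT and 43.3% to 50.3% in R26-TIR1(F74G). These shares were singled out after their values were seen, shares of one family are tied to each other, and no test was made. They also rest on exon lengths of 13401 bases for Pfkp, 6675 for Pfkl and 3340 for Pfkm. The canonical transcripts have 4308, 4101 and 3997 bases. For Eno1 and Eno3 the lengths were 5379 and 1739 bases, against 2293 and 1741. Shares on canonical lengths were not computed, so which form leads a family is not settled.

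**Figure D4:**
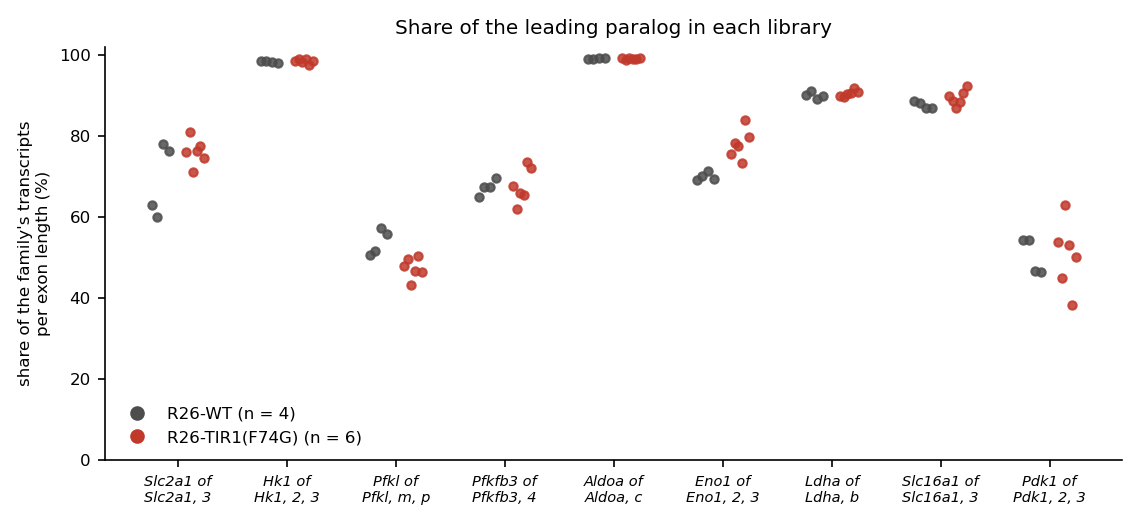
Share of one paralog among its family's transcripts per exon length (y axis, percent) in each library, for 9 families (x axis), with R26-WT in grey (n = 4) and R26-TIR1(F74G) in red (n = 6). The Eno1 and Pfkl shares do not overlap between genotypes, and Ldha stays between 89.1% and 91.8%.

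The remaining genes of lower glycolysis had smaller fold changes. Pkm, the pyruvate kinase that yields ATP and pyruvate, had 27516, 28464, 28872 and 29797 normalized counts in R26-WT replicates 1 to 4, and 27949 to 32386 with a median of 30146 in R26-TIR1(F74G). The groups overlapped, and the log2 fold change of 0.08 (SE 0.08) had the smallest error of the 35, with an interval from -0.07 to 0.23. Pgam1, the phosphoglycerate mutase, had 128, 133, 145 and 183 normalized counts in R26-WT and 143 to 193 with a median of 175 in R26-TIR1(F74G). Its log2 fold change was 0.23 (SE 0.17, DESeq2 adjusted p = 0.99996), and Gapdh and Pgk1 stood at 0.08 and 0.13.

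Lactate leaves the cell after Ldha reduces pyruvate, whereas Ldhb favours the reverse reaction. Ldha (chr7:46490899-46505051, GRCm39, plus strand) had 52547, 53587, 64176 and 65577 normalized counts in R26-WT replicates 1 to 4, and 45481 to 70143 with a median of 55958 in R26-TIR1(F74G). The R26-TIR1(F74G) range enclosed every R26-WT library, and the log2 fold change was -0.02 (SE 0.15, interval -0.30 to 0.27). Ldhb was at -0.11 (SE 0.17), and Ldha held 89.1% to 91.8% of the pair in every library.

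The lactate transporter Slc16a1 (MCT1) had 2429, 2746, 1895 and 1865 normalized counts in R26-WT replicates 1 to 4. In R26-TIR1(F74G) the lowest was 2276, the median 2566 and the highest 2864. R26-WT replicates 3 and 4 lay below every other library while replicates 1 and 2 lay among them, and the log2 fold change was 0.20 (SE 0.14, DESeq2 adjusted p = 0.99996). Slc16a3 (MCT4), an exporter of glycolytic cells, was at -0.03 (SE 0.19).

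Pyruvate dehydrogenase kinases keep pyruvate out of the mitochondrial cycle. Pdk1, Pdk2 and Pdk3 had log2 fold changes of 0.04, -0.14 and 0.09, with standard errors from 0.13 to 0.20. Pdk1 was 38.2% to 62.9% of the 3 kinases in R26-TIR1(F74G) and 46.3% to 54.3% in R26-WT. The pentose phosphate enzymes, which supply NADPH and ribose, lay from -0.07 for G6pdx, the entry enzyme, to 0.11 for Pgd, with Tkt at 0.04 and Taldo1 at -0.04. Their standard errors were 0.10 to 0.16, so all 4 intervals lay within 1.5-fold.

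Hif1a encodes the oxygen-regulated subunit of HIF-1, which is controlled mainly by protein stability. Its normalized counts were 10496, 11611, 5302 and 5203 in R26-WT replicates 1 to 4, and 6556 to 12197 with a median of 8506 in R26-TIR1(F74G). The R26-WT libraries fell into 2 pairs on either side of most R26-TIR1(F74G) values, with a coefficient of variation of 41.5%, and the log2 fold change was 0.09 (SE 0.26). The low pair is replicates 3 and 4, the same libraries that stand out on the first principal component.

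Bnip3, a mitophagy receptor and HIF-1 target, had 171, 226, 210 and 266 normalized counts in R26-WT replicates 1 to 4. In R26-TIR1(F74G) the lowest was 138, the median 161 and the highest 186. Only R26-WT replicate 1 lay within the R26-TIR1(F74G) range, and the log2 fold change was -0.42 (SE 0.17, unadjusted p = 0.0117, DESeq2 adjusted p = 0.314). Besides its repeated stretches, 22.3% of its exon bases overlap another gene.

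Myc (chr15:61857240-61862223, GRCm39, plus strand), a transcription factor that drives growth and glycolysis, had 20120, 19983, 22470 and 19858 normalized counts in R26-WT replicates 1 to 4. In R26-TIR1(F74G) the lowest was 19078, the median 21388 and the highest 23932. The groups overlapped fully, and the log2 fold change was 0.05 (SE 0.10), with an interval from -0.15 to 0.24.

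**Figure D5:**
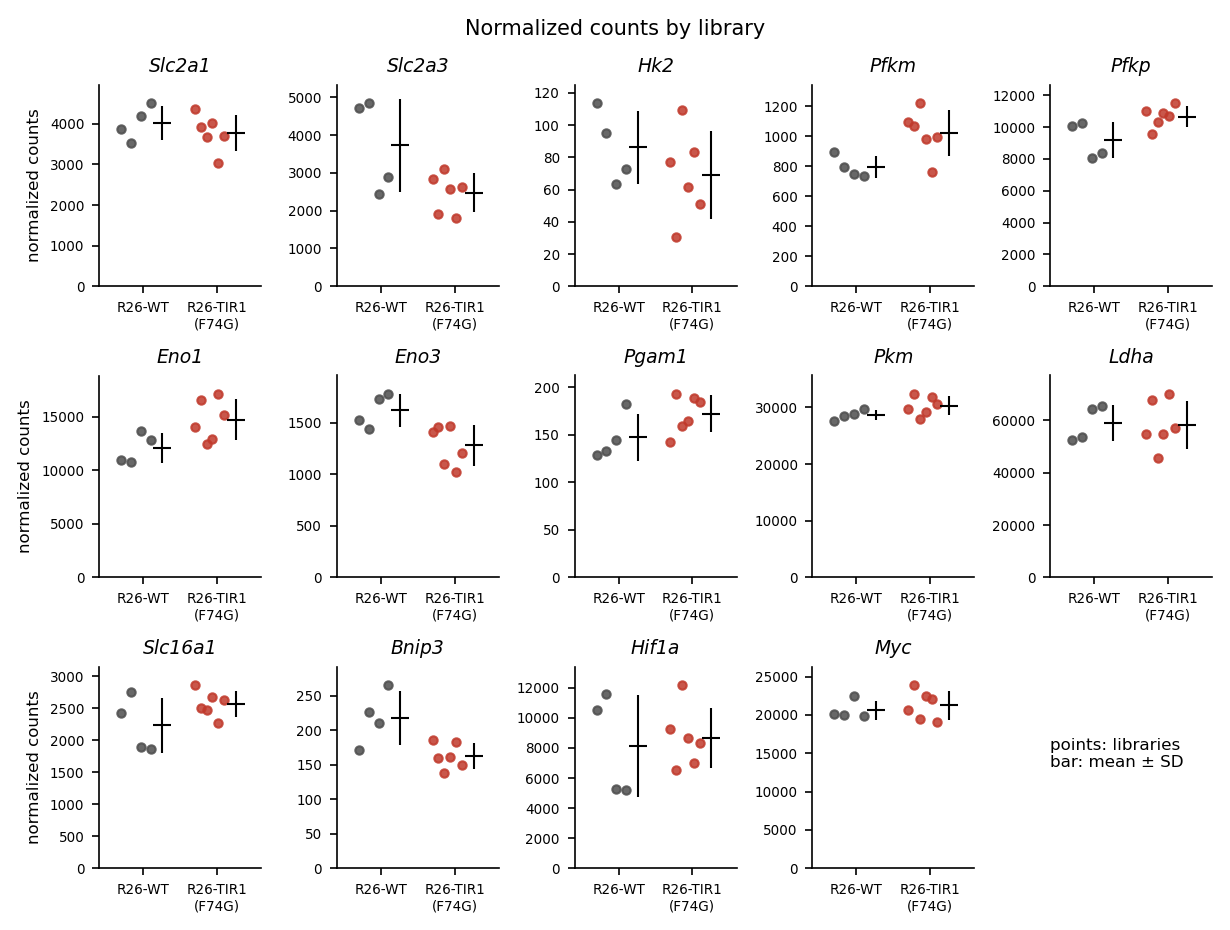
Normalized counts (y axis, from 0) of 14 genes in each R26-WT (grey, n = 4) and R26-TIR1(F74G) (red, n = 6) library, with bars for mean ± SD. Ranges of the genotypes overlap in every panel. R26-WT replicates 1 and 2 lie apart from replicates 3 and 4 in several panels, among them Slc2a3, Pfkp, Eno1, Ldha, Slc16a1 and Hif1a.

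Promoters were compared for the motifs of the 2 regulators in RefSeq windows of the 250 bases upstream of each start (GRCm38.p6), for the 33 members found there, all but Slc2a3 and Myc. ACGTG, the core of the HIF-1 motif, occurred on either strand for 16 members (48.5%), against 18.5% of all 27025 genes of the table. CACGTG, the E-box of MYC and MAX, which holds ACGTG, occurred for 7 members (21.2%), against 6.86%. The 7 were Pfkm, Pfkfb3, Ldha, Slc16a1, Pdk2, Hif1a and Bnip3. Their log2 fold changes ran from -0.42 for Bnip3 to 0.36 for Pfkm. A gene counts here if any of its windows matches, and the 33 members have 48 windows. By window, ACGTG occurred in 39.6%, against 16.6% of all 32851 windows, and CACGTG in 14.6%, against 6.02%. A match in letters is a description and not a bound site.

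Windows are shown, for the most abundant member and for the pair with an E-box and the smallest p. They read 5′ to 3′ on the gene's strand, with ACGTG, its reverse complement and CACGTG in capitals. The table has 2 windows for Ldha, 4 for Pfkm and 1 for Bnip3, and the other windows of Ldha and Pfkm hold no E-box. The Ldha window shown (chr7:46845554-46845803, plus strand) has 5 matches of ACGTG, 4 of them in 2 E-boxes. The Pfkm window shown (chr15:98092339-98092588, plus strand) and the Bnip3 window (chr7:138909507-138909756, minus strand) hold 1 E-box each.
Ldha: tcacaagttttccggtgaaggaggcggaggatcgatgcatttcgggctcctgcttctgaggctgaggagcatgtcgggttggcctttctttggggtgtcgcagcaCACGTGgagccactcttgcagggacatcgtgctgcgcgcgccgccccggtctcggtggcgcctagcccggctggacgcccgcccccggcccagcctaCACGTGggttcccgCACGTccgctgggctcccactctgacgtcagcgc
Pfkm: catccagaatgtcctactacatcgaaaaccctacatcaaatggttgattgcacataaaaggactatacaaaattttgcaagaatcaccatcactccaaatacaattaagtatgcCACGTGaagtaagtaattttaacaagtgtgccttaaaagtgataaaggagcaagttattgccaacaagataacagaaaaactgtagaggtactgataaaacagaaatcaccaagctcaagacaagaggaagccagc
Bnip3: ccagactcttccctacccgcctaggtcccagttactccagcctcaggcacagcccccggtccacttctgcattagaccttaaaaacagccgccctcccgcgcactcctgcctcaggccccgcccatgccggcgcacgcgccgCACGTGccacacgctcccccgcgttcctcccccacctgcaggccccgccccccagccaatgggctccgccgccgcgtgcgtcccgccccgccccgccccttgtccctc

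Other genes of the same pathways were read from lists that do not contain the members. Of 32 other glycolysis, lactate and glycogen genes 23 were tested and 1 was called, with a median log2 fold change of 0.03. The called gene was Slc2a6 (GLUT6), a transporter of intracellular membranes. It had 4.78, 9.84, 15.5 and 22.0 normalized counts in R26-WT replicates 1 to 4 and 27.8 to 79.1 in R26-TIR1(F74G), without overlap. Its log2 fold change was 2.1 (SE 0.42, DESeq2 adjusted p = 1.6e-04), and edgeR did not call it (adjusted p = 0.0792).

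No gene was called by DESeq2 or edgeR among 10 tested genes of pyruvate entry, 7 of the pentose phosphate pathway, 18 HIF-1 targets, 6 HIF-1 regulators and 20 MYC targets. At an unadjusted p under 0.05 these lists held 0, 1, 1, 1 and 0 genes. Median log2 fold changes were -0.01, 0.07, -0.0033, 0.08 and 0.05 in that order. The HIF-1 target closest to the threshold was Bnip3l, a mitophagy receptor related to Bnip3, at -0.17 (SE 0.08, DESeq2 adjusted p = 0.647). Epas1, which encodes HIF-2 alpha, stood at 1.21 (SE 0.37, adjusted p = 0.0575) from means of 39.8 and 92.0 normalized counts.

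Of 22 tested genes of the MYC network and nutrient signalling, 1 was called. Mxd3, a MAX partner that opposes MYC at E-boxes and is made in dividing cells, averaged 58.9 ± 25.1 in the 4 R26-WT and 166 ± 55.2 in the 6 R26-TIR1(F74G) libraries (mean ± SD), which DESeq2 called at a log2 fold change of 1.5 (SE 0.34, adjusted p = 0.0014) and edgeR did not (adjusted p = 0.121). Foxo1, which holds T cells in a resting state, stood at -0.27 (SE 0.09, adjusted p = 0.145), without overlap between genotypes.

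Most markers of cell division on the list were called higher by DESeq2, 14 of 18, and 6 were called by edgeR, with a median log2 fold change of 1.41. The smallest p belonged to Stmn1, Rrm2 and Cdk1, at log2 fold changes of 1.3, 1.43 and 1.4. The 4 without a call were Ccnb1 at 1.08, Kif11 at 1.75, Mcm2 at 0.52 and Pcna, the only one with a negative value, at -0.14. The mean log2 normalized count of the 18 was 7.6 to 8.6 in R26-WT and 9.13 to 9.99 in R26-TIR1(F74G), while the same mean over the 35 members was 11 to 11.1 in both genotypes. Of 14 activated Treg cell markers Tigit was called higher and Tnfrsf9 lower, and of 10 resting T cell markers Tcf7 and Bcl2 were called higher by DESeq2, and edgeR called none of these 4. Of 5 tested markers of CD8 T and NK cells Eomes was called higher, from a mean of 109 to 302 normalized counts (log2 fold change 1.47, SE 0.23, adjusted p = 4.5e-08 with DESeq2 and 0.0161 with edgeR). The other 4 were not called and stood at -0.56 for Cd8a, -0.23 for Cd8b1, -0.64 for Klrd1 and 0.26 for Klrb1c, and the median of the 5 was -0.23. In bulk RNA a change in the share of dividing cells and a change per cell cannot be told apart. The difference between the lists was not tested.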

How the data were processed

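Per the labels, libraries were made from 1–2 ng of RNA with SMART-Seq v4, and no molecular identifiers are named. The deposited values are raw counts of read pairs per gene: per the file headers, the authors used featureCounts 2.1.1 with GENCODE M30, a mapping quality of at least 30 and no strand option. The study's methods name STAR and mm39, and the submitters' processing notes Bowtie2. The study's general sorting method gates Treg cells by CD4, TCR beta and ZsGreen, and in R26-TIR1(F74G) mice by mCherry too, so where it was used gate and genotype cannot be told apart. Whether resting and activated cells were split here is not given in the sources used here. Counts of libraries of one genotype differed by a chi-square per degree of freedom of at least 10.3, so none was taken as a duplicate within its genotype.

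Genes whose mean count reached 10 were tested with DESeq2 1.42.0 (R 4.3.3; Wald test, two-sided, with a genotype term alone, Benjamini-Hochberg adjustment over all tested genes, threshold 0.05), as in the study's methods. Alternatives were edgeR 4.0.16, limma 3.58.1 voom, other scalings and filters, removal of each library's spline trend on exon length and GC content, and leaving out libraries. TPM used the exon lengths of the files, which cover all annotated exons of a gene. Scripts were tested on simulated data. The member genes, lists and promoter motifs were chosen with earlier results of these data known. Each R26-WT value and the lowest, median and highest R26-TIR1(F74G) value are given for members called, without overlap or among the 8 smallest p, and for Slc2a1, Hk2, Ldha, Pkm, Hif1a and Myc. Of other lists, only called genes or the 3 with the smallest p were to be named. Other genes of these lists (Foxp3 and markers of proliferation, B cells and CD8 T and NK cells) were added after their values were seen.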

Additional observations from a re-analysis of the deposited data

Results flagged for a closer look

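Within each genotype the highest and lowest library of every member was compared with the rest (Dixon's ratio of gap to range), in 70 groups of values, and chance alone gives about 1 in 20. In 2 the ratio passed the 95% critical value. G6pdx in R26-TIR1(F74G) replicate 7 was low, at 3285 normalized counts against 3854 to 4190 in the other R26-TIR1(F74G) libraries (ratio 0.629), and replicate 7 is the library farthest out on the first principal component. Myc in R26-WT replicate 3 was high, at 22470 against 19858 to 20120 in the other R26-WT libraries (ratio 0.9). Neither gene was called in any setting.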

How the results depend on the processing

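Over 700 comparisons of a member's fold change with an alternative, 654 kept direction and side of the threshold, 43 changed sign and 3 passed the threshold. The 23 members that never changed sign include Slc2a3, Pfkm, Pfkp, Eno1, Eno3 and Bnip3, and the largest value with a changed sign was 0.0939 on the log2 scale. Genes called in all numbered 284, against 61 with edgeR, 80 with voom, 121 with edgeR after trend removal, 186 without R26-TIR1(F74G) replicates 7 and 9, and 187 to 346 leaving out 1 library each, the fewest without R26-WT replicate 4. Members called numbered 1 with the trend removed under DESeq2 and under edgeR (Slc2a3), 0 to 1 leaving out 1 library each (Pfkm, without R26-TIR1(F74G) replicate 9) and 0 otherwise. The 2 settings with edgeR after trend removal and without replicates 7 and 9 were chosen after seeing the data. Changed signs were Pfkfb3 0.048, Pfkfb4 0.016 and Aldoa -0.012 with voom, Aldoa -0.035, Pdk1 -0.043 and Tkt -0.057 with the trend removed under either tool, and Taldo1 0.0035 without replicates 7 and 9. Leaving out 1 library each gave Hk1 -0.0065 to 0.27, Pfkfb3 -0.16 to 0.092, Pfkfb4 -0.19 to 0.057, Aldoa -0.064 to 0.10, Aldoc -0.024 to 0.22, Tpi1 -0.092 to 0.094, Ldha -0.073 to 0.046, Slc16a3 -0.10 to 0.057, Pdk1 -0.064 to 0.14, Taldo1 -0.12 to 0.053 and Hif1a -0.074 to 0.31. The causes were not tested. No paired analysis was possible because replicate numbers 1 to 4 and 5 to 10 are not common to both genotypes. Hk2 and Hk3 had the lowest levels of the members and the largest standard errors. The levels of Gapdh, Pgk1, Pgam1, Bnip3, Eno1, Pkm and Ldha are uncertain. Of the 50-base stretches of their canonical transcripts, 31.4% for Ldha to 93.0% for Pgam1 occur again in the genome. For Ldhb, Tpi1, Gpi1 and Aldoa the canonical shares are lower, and over all annotated exons the order differs.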
